A study of Harpegnathos saltator with 14 samples.

Results

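Among the loci with XLOC identifiers in whole-body RNA of the ant Harpegnathos saltator, 101 had their highest mean level in males. They are 101 of 397 XLOC loci (25.4%) that reached 1 RPKM (reads scaled for gene model length and library depth) in at least 2 of 14 libraries. The whole table holds 20755 gene models, 438 of them with XLOC identifiers and 20317 with HSALG identifiers, and 12421 passed the same filter. A locus was a member when its mean log2(RPKM + 1) over the 2 male libraries exceeded that of each of the other 6 groups. The members were thus chosen by their RPKM in males relative to the other groups, and every value that sets males against another group is given as a description with no test.

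The groups were males, embryos, instar 1 and instar 4 larvae, early and late pupae, and adult workers, with 2 libraries each. All were whole bodies of H. saltator kept on live crickets, and the labels name no treatment or mutant allele. The labels give no age for males or workers and name no source animal or colony, so the p-values below speak of differences among libraries, and their spread may be technical. In whole bodies a larger share of the cells that carry a transcript and more transcript per cell cannot be told apart.

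Ant males develop from unfertilised eggs, are haploid and winged, and their main task is to produce and transfer sperm. Workers are diploid females. XLOC is the prefix that the Cufflinks programs give to loci assembled from reads, and such loci often hold long non-coding RNAs, transcripts that are not translated. In Drosophila melanogaster many long non-coding RNAs are found in the testis. The files do not pair these identifiers with gene names, sequences or positions, 0 identifiers matched the 14329 genes of the RefSeq name table, and no tissue marker could be read. Loci are therefore described by identifier, level, length and pattern. Because the strand setting of the read counting is not given, reads of a locus and of an overlapping gene on the other strand cannot be told apart.

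The library denominators behind the RPKM values, resolved from the steps that whole reads leave, ran from about 11379000 reads in male replicate 2 to about 40063000 reads in late pupa replicate 2. Male replicate 1 had about 15399000 reads. The 101 loci held 42071 and 20057 reads in the male libraries, with a median of 171 and 84 reads per locus. At the median length 1 read was worth 0.0509 and 0.0689 RPKM in males and between 0.0196 and 0.0549 RPKM elsewhere. Reads are not independent molecules, so limits set at 3 reads cover counting error only. Replicates were closest in workers (r = 0.986 across tested genes) and farthest apart in early pupae (r = 0.689), with males at 0.928.

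The gene models differed in kind from the HSALG models by their resolved lengths. Lengths were multiples of 3, as a coding sequence without untranslated ends must be, for 39 of the 101 loci (38.6%), for 36.8% of the other 296 tested XLOC loci and for 97.7% of 12024 tested HSALG genes. The 101 loci had a median length of 1275 bases, with quartiles of 749 and 1875 bases, against a median of 1021 bases for the other XLOC loci. The shortest was XLOC_022214 at 233 bases and the longest XLOC_013155 at 5528 bases. XLOC_013155 was weak and even, with 2.80 and 2.24 RPKM in males and between 0.670 and 1.93 RPKM in the other 12 libraries.

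Male levels spanned a wide range. The male mean ran from 1.02 RPKM to 338 RPKM with a median of 7.69 RPKM, where the other 296 tested XLOC loci had a median of 2.36 RPKM and tested HSALG genes 4.33 RPKM. It reached 10 RPKM in 41 loci and 100 RPKM in 4, and lay under 5 RPKM in 34. Most loci were also expressed outside males: 38 reached 1 RPKM in all 14 libraries and 87 were above 0 in all 14. Loci that stayed under 1 RPKM in every other library numbered 2, XLOC_085695 and XLOC_012414, named after their values were seen.

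**Figure D1:**
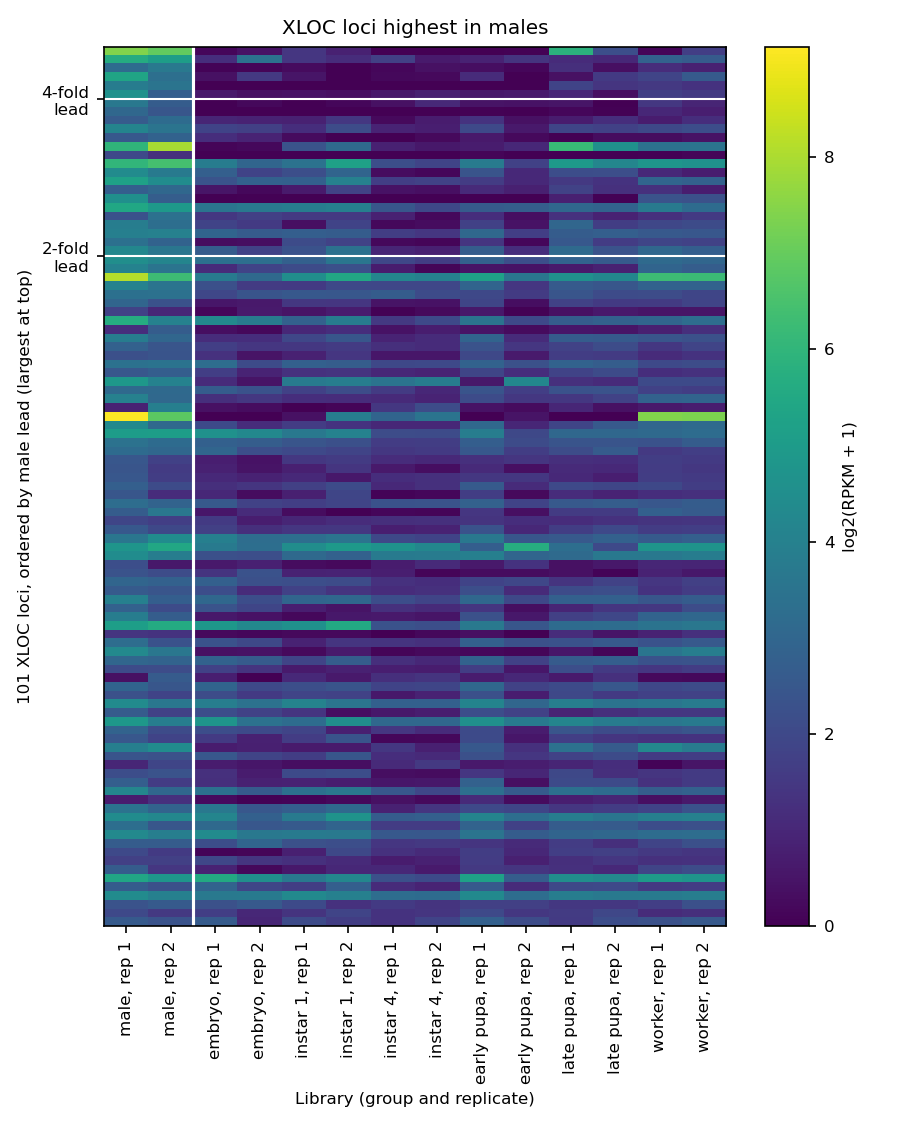
Level of each of the 101 loci (rows, ordered by the male lead) in each of the 14 libraries (columns, males at the left), as log2(RPKM + 1) in colour. White lines across mark where the lead falls under 4-fold and under 2-fold; most rows keep colour outside males, and the rows that are darkest outside males are most frequent at the top.

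The lead of males over the second highest group was small for most loci. On the log2(RPKM + 1) scale it ran from 0.01 to 3.14 with a median of 0.46, and it came to at least 4-fold in 6 loci, 2-fold to 4-fold in 18 and under 2-fold in 77. This scale understates the fold of low loci. Both male libraries lay above all 12 others in 6 of 6, 17 of 18 and 25 of 77 loci of these classes, 48 in all (47.5%). That pattern was found in 4.8% of all tested genes and, since the rule selects for it, in 548 of the 1355 HSALG genes that were highest in males (40.4%). In the other 53 loci the male libraries overlapped those of another group. Those 1355 HSALG genes had a median lead of 0.45, with 24.9% at 2-fold or more, against 23.8% of the 101 loci. Leads of 16-fold or more on this scale occurred in 23 of those 1355 genes and in 0 of the 101 loci. That 0 depends on the scale: XLOC_085695 averaged 2.24 RPKM in males and 0.0630 RPKM in workers, 35.5-fold in mean RPKM, with a lead of 1.56.

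**Figure D2:**
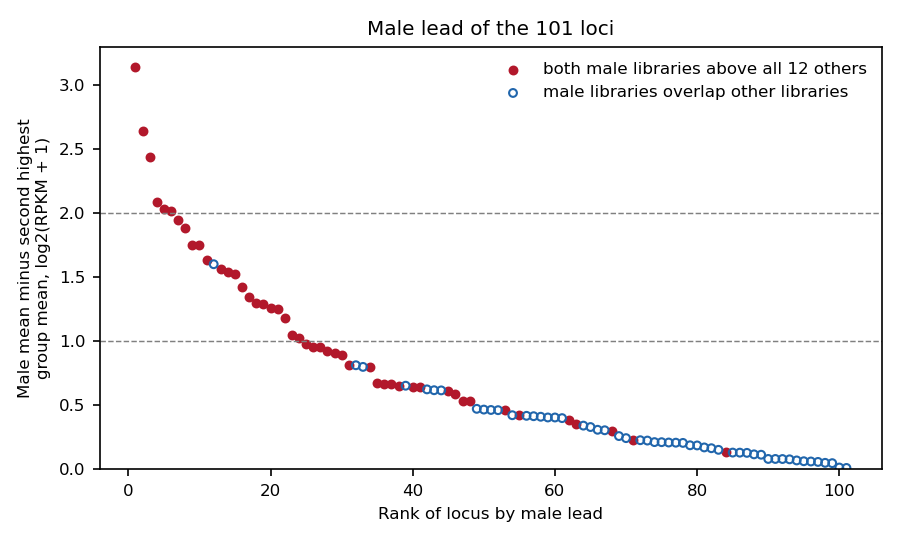
Difference between the male mean and the second highest group mean of log2(RPKM + 1) for the 101 loci in rank order, with dashed lines at 2-fold and 4-fold. Filled points are the 48 loci with both male libraries above all 12 others; open points are the 53 that overlap, nearly all of them under 2-fold.

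A larger share of XLOC loci than of HSALG genes was highest in males, 101 of 397 (25.4%) against 1355 of 12024 (11.3%), where 11.7% of all tested genes were. The share was 34.5% against 46.9% for embryos, 16.4% against 11.3% for late pupae and 5.04% against 8.16% for workers. The excess in males was seen in each class of level under 20 RPKM, averaged over the 12 libraries other than males. Among genes averaging 2 to 5 RPKM over the 12 libraries other than males, 37 of 115 XLOC loci (32.2%) and 244 of 2743 HSALG genes (8.90%) were highest in males. At 5 to 20 RPKM the counts were 19 of 111 (17.1%) and 442 of 4714 (9.38%). Among genes averaging 20 RPKM or more they were 3 of 25 (12.0%) and 281 of 2031 (13.8%), too few XLOC loci to say whether the excess was absent there. These shares are a description and were not tested.

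XLOC_118104 had the largest lead. It stood at 168 and 123 RPKM in males, and at 58.1 and 3.56 RPKM in late pupae. Workers had 0.0875 and 2.21 RPKM, embryos 0.122 and 0.347, larvae of instar 1 1.71 and 0.800, and early pupae 0 and 0.0346, while both instar 4 libraries held 0 reads. Both male libraries were above every other library, and the late pupa libraries lay far apart. The lead over late pupae came to 3.14 on the log2 scale, with means of 145 ± 31.8 RPKM in males and 30.8 ± 38.5 RPKM in late pupae (SD, n = 2 each).

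XLOC_031906 was the next, with 48.9 and 32.9 RPKM in males and a lead of 2.64. Workers had 6.11 and 5.12 RPKM and embryos 1.29 and 9.84 RPKM, and the remaining 8 libraries lay between 0.599 and 2.30 RPKM. Both male libraries lay above all 12 others, while the other groups overlapped, with 1 embryo library above both worker libraries. XLOC_107994 reached 8.16 and 11.9 RPKM in males (134 and 144 reads), against at most 1.34 RPKM elsewhere, in late pupa replicate 1. Its second group was workers, with 1.23 and 0.806 RPKM, and its lead was 2.44.

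The other 3 loci with a lead of at least 4-fold were XLOC_089411, XLOC_113687 and XLOC_101440. XLOC_113687, 3564 bases long, was the most regular: 13.2 and 10.3 RPKM in males, 2.61 and 1.66 RPKM in late pupae, and 1.84 and 1.56 RPKM in workers. In the 8 libraries of embryos, larvae and early pupae it held 1 read in all, in embryo replicate 2. It was thus seen in males, late pupae and workers, with no overlap between males and the others. XLOC_089411 had 39.2 and 9.12 RPKM in males against 2.71 and 5.08 RPKM in workers, and XLOC_101440 had 23.8 and 5.58 RPKM in males against 2.33 and 2.01 RPKM in workers. In both the male libraries lay far apart, by 1.99 and 1.91 on the log2 scale, with replicate 1 higher.

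**Figure D3:**
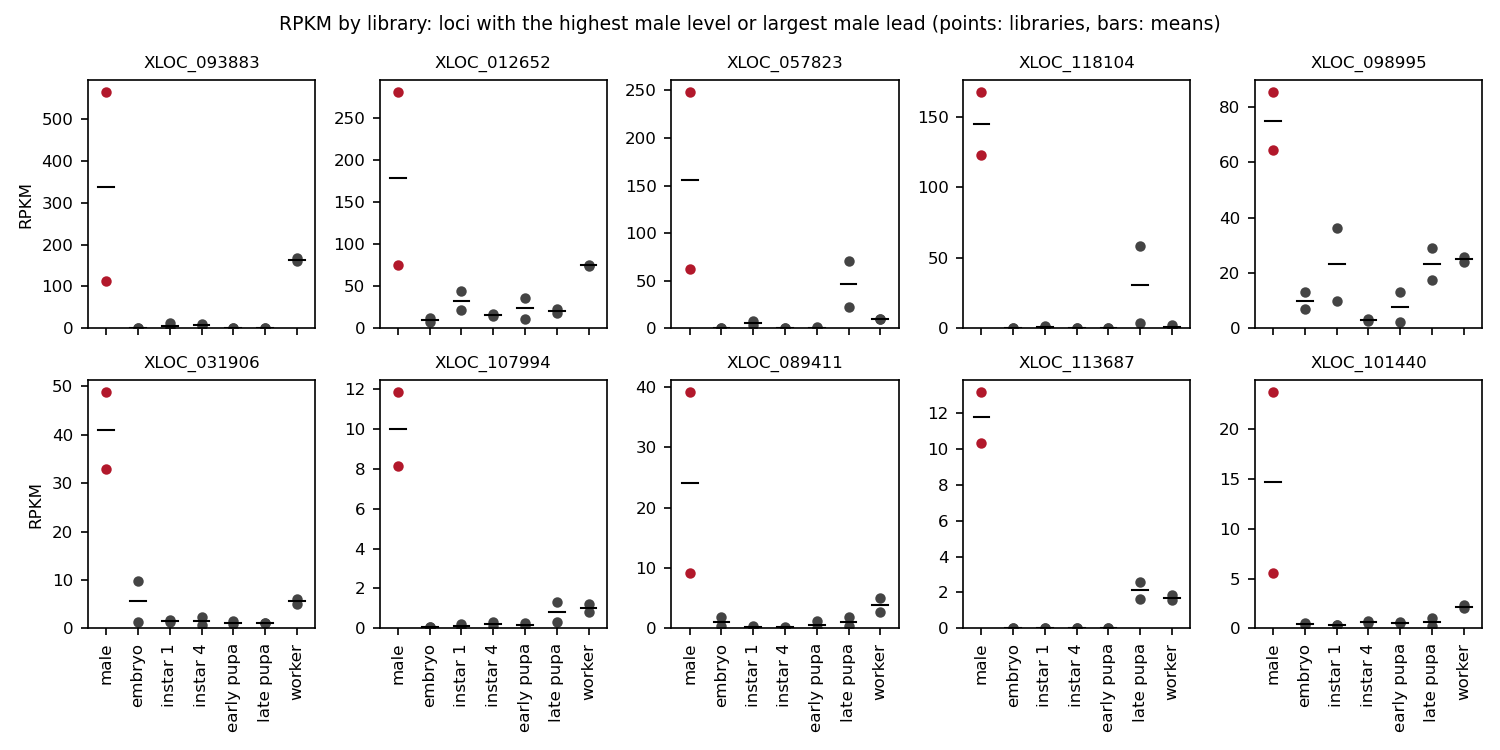
RPKM of the 10 loci with the highest male level or the largest male lead, by group, males at the left of each panel. Points are libraries and bars are means of 2; in XLOC_093883 a male library at 112 RPKM lies below the workers at 168 and 160 RPKM, and in XLOC_057823 a male library overlaps late pupae.

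The most abundant locus in males was not clearly above workers. XLOC_093883 stood at 564 and 112 RPKM in males and at 168 and 160 RPKM in workers, so that male replicate 2 was below both worker libraries. In embryos and late pupae all 4 libraries held 0 reads, early pupae had 0 and 0.395 RPKM, and larvae ran from 0.318 to 13.6 RPKM. Its lead was 0.62, and without male replicate 1 it was no longer highest in males. XLOC_012652, the second by male level, had 281 and 75.7 RPKM in males and 75.5 and 74.5 RPKM in workers, a lead of 0.95. Its male replicate 2 was level with the workers.

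XLOC_057823 came next, with 62.5 and 248 RPKM in males, here highest in male replicate 2. Late pupae had 71.2 and 22.9 RPKM, and their replicate 1 lay above male replicate 1. Its lead was 1.60 as deposited and 0.49 under quantile scaling. XLOC_098995 was steadier, with 64.4 and 85.6 RPKM in males, 26.0 and 23.9 RPKM in workers and 36.3 RPKM in the highest other library, instar 1 replicate 2.

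The 3 loci of highest male level took 39.6% and 29.2% of the summed RPKM of the 101 loci in males. That sum came to 2294 and 1496 RPKM in males, and to 695 and 698 RPKM in workers. Without those 3 loci it was 1387 and 1060 RPKM in males, 441 and 453 RPKM in workers, and 197 and 186 RPKM in instar 4 larvae, the lowest group. Males were above all 12 other libraries in both sums, which the choice of members favours.

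Among the 18 loci with leads of 2-fold to 4-fold, the second group was workers for 7, late pupae and instar 1 larvae for 4 each, and embryos for 3. The loci in the next sentences were picked after their values were seen, for their low counts outside males. XLOC_085695 had 35 and 12 reads in males (3.06 and 1.42 RPKM) and 3 reads in the other 12 libraries together, at most 1 in any. It was the locus most restricted to males, with a tau index of 0.985, where tau is 0 for equal group means and 1 for expression in a single group. XLOC_061813 had 7.36 and 4.51 RPKM in males, 1.00 and 0.703 RPKM in workers, and at most 0.126 RPKM elsewhere. XLOC_010235 had 11.6 and 5.28 RPKM in males against 1.77 and 0.930 RPKM in workers. Over all 101 loci the median tau was 0.42, against 0.41 in the other tested XLOC loci and 0.38 in the HSALG genes highest in males.

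For other loci of this class the second group was embryos or instar 1 larvae. XLOC_043206, 320 bases long, had 4.67 and 6.32 RPKM in males (23 reads in each library) and 1.26 and 0.902 RPKM in embryos, with at most 3 reads in each of the other 10 libraries. XLOC_046353 had 20.3 and 12.6 RPKM in males, 3.54 and 6.74 RPKM in larvae of instar 1, and 5.85 and 2.54 RPKM in embryos. Its levels were not particular to early stages, with 3.53 and 3.63 RPKM in late pupae and 4.14 and 1.09 RPKM in early pupae. Both loci had male libraries above all others.

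Over the 101 loci the second highest group was workers for 30, embryos for 25, late pupae for 20, instar 1 larvae for 17, early pupae for 5 and instar 4 larvae for 4. The lead was larger where the second group was workers (median 0.77) or late pupae (0.66) than where it was embryos (0.33). Of the 24 loci with a lead of at least 2-fold, 11 had workers second and 6 late pupae. Second groups were counted for the members only and leads are values that the rule used, so nothing particular to the loci is read from them. The members most abundant in their second group were XLOC_057823 for late pupae (lead 1.60) and XLOC_093883 for workers (lead 0.62), both described above, and a locus with a smaller lead for each of the other 4 groups. XLOC_031242 had 41.5 and 26.7 RPKM in males against 46.4 and 21.9 RPKM in embryos, and XLOC_095126 had 33.9 and 47.2 RPKM in males against 23.0 and 45.0 RPKM in instar 1 larvae. XLOC_067574 had 28.0 and 13.7 RPKM in males against 23.1 and 12.4 RPKM in early pupae. XLOC_072021 had 20.7 and 13.8 RPKM in males against 12.3 and 12.8 RPKM in instar 4 larvae. In XLOC_031242, XLOC_095126 and XLOC_067574 the male libraries overlapped those of the second group, and in XLOC_072021 they did not, although early pupa replicate 1, at 14.3 RPKM, lay above male replicate 2.

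At the edge of the rule the order of groups was within the spread of the replicates. The 3 members with the smallest leads were XLOC_024355, XLOC_099162 and XLOC_048642, with leads of 0.01, 0.01 and 0.05. XLOC_024355 averaged 4.54 ± 0.667 RPKM in males and 4.64 ± 1.85 RPKM in early pupae (SD, n = 2 each), so it led on the log scale and not in mean RPKM. Just outside, XLOC_027517, XLOC_101291 and XLOC_054576 had male means below their highest group by under 0.01 on the log2 scale. XLOC_101291 averaged 9.94 ± 3.85 RPKM in males and 9.99 ± 4.07 RPKM in embryos (SD, n = 2 each).

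The male libraries did not weigh equally. Of the 101 loci, 73 (72.3%) were higher in male replicate 1, as were 69.9% of all tested genes, and the median difference between the male libraries was 0.48 in the loci and 0.28 over all tested genes on the log2 scale. In 32 loci the RPKM values of the male libraries were at least 2-fold apart, against 62 loci for early pupae, 14 for instar 4 larvae and 4 for workers. On the log2(RPKM + 1) scale, which damps differences of low loci, the counts were 20 for males, 42 for early pupae, 1 for instar 4 larvae and 1 for workers. Without male replicate 1 the rule found 74 loci, 72 of them among the 101, and without male replicate 2 it found 128, 93 of them among the 101. After median scaling of the libraries the rule found 119 loci, 97 of them shared, and quantile scaling 120, 94 of them shared. In all, 53 loci were highest in males under each of 19 such settings, among them all 24 with a lead of at least 2-fold and 29 of the other 77.

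**Figure D4:**
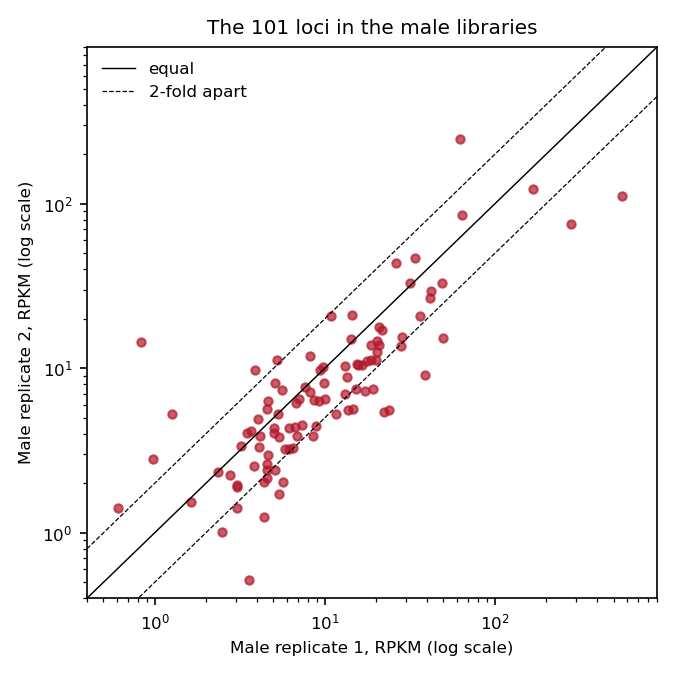
RPKM of the 101 loci in male replicate 2 against male replicate 1, on log axes, with lines for equal values and for 2-fold differences. 73 loci lie below the line of equal values, and 32 lie outside the 2-fold lines.

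The remaining results concern the other 6 groups, which the rule bounds from above by the male level. It leaves out loci highest in any of them, 16.4% of tested XLOC loci for late pupae and 5.04% for workers. The rule can therefore shift the counts and medians below. log2(RPKM + 1) of the 12 libraries other than males was fitted with limma, and p-values were adjusted by Benjamini-Hochberg over 12421 genes. Of the 101 loci, 43 (42.6%) varied over the 6 groups at an adjusted p below 0.05, against 64.7% of all tested genes and 54.7% of the other XLOC loci. Because loci highest in any of these groups were left out, nothing is read from the lower share. Over all tested genes the median of log2(RPKM + 1) was lowest in instar 4 larvae, at 1.92. The highest and lowest groups were counted for the members only, so nothing particular to them is read from the counts. Among the 43 varying loci, the highest of the 6 groups was workers for 16 and embryos for 11, and the lowest was instar 4 larvae for 22. The count was 68 without both early pupa libraries, 67 and 66 without replicate 1 or 2 of them, and between 19 and 28 without either instar 4 library, either worker library or late pupa replicate 1.

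Some loci rose in adult workers over late pupae, with no overlap between the groups. XLOC_093883, highest of all in level, stood at 168 and 160 RPKM in workers with 0 reads in both late pupa libraries, at least 870-fold higher when the late pupa level is set at 3 reads in 1 library (limma, adjusted p = 0.000557). XLOC_093889 had 10.8 and 13.5 RPKM in workers against 0.457 and 0.104 RPKM in late pupae, a log2 difference of 3.37 ± 0.27 (SE; limma, adjusted p = 4.64e-05). XLOC_084585 had 6.76 and 5.51 RPKM in workers against 0.529 and 0.800 RPKM in late pupae, a log2 difference of 2.10 ± 0.34 (limma, adjusted p = 0.00373). The call held in every alternative fitted, 23 for XLOC_093883 and 22 for each of the others. The same loci reached 18.6 and 11.2 RPKM (XLOC_093889) and 15.6 and 10.4 RPKM (XLOC_084585) in males, overlapping workers in XLOC_093889 and above both worker libraries in XLOC_084585.

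In all, 6 loci were called higher in workers than in late pupae (background 7.25% of tested genes) and 1 lower (2.57%). The median over the 101 loci was 0.11 on the log2 scale, against -0.26 over the other XLOC loci and -0.00 over all tested genes. Nothing is read from these medians, because the rule leaves out loci highest in late pupae. The share of the loci called, 6.93%, was not above the background of 9.81%. Among the loci called higher was XLOC_061813, which outside males reached 1 RPKM only in worker replicate 1 and so passed the filter only with the male libraries. The 1 that fell was XLOC_057823, to 9.99 and 10.2 RPKM in workers against 71.2 and 22.9 RPKM in late pupae, a log2 difference of -1.90 ± 0.50 (limma, adjusted p = 0.0403, between 0.0136 and 0.209 over 23 alternatives and lost in 12 of them: the replicate block, median scaling, no filter, a pseudocount of 0.1, all 14 libraries, and leaving out either embryo, instar 4 or worker library or late pupa replicate 1). The count of calls was 14 without both early pupa libraries or either of them, 16 with only the 4 libraries compared, and 4 with the replicate block or without either worker or either instar 4 library.

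Between instar 1 larvae and embryos the rule itself bears on the counts, because it leaves out every gene highest in embryos, 34.5% of tested XLOC loci and 46.9% of HSALG genes, and nothing is read from the share called lower or from the median. In instar 1 larvae 8 loci were called higher (background 4.2%) and 2 lower (23.1%), 10 in all or 9.9% against 27.3% of all tested genes, and the median was -0.02 where that of all tested genes was -0.55. XLOC_022214 had 12.5 and 13.5 RPKM in instar 1 larvae against 1.16 and 0.413 RPKM in embryos, a log2 difference of 3.01 ± 0.88 (limma, adjusted p = 0.0318, lost in 11 of 23 alternatives, among them leaving out either embryo, instar 1, instar 4 or worker library). XLOC_057823 rose to 4.01 and 7.97 RPKM in instar 1 larvae, against 0.0995 and 0.142 RPKM in embryos (2.58 ± 0.50; limma, adjusted p = 0.00721). XLOC_099575 rose to 3.30 and 2.53 RPKM against 0.243 and 0.275 RPKM in embryos (1.63 ± 0.43; limma, adjusted p = 0.0216). Both of these calls were lost without instar 1 replicate 2, and that of XLOC_099575 also without instar 1 replicate 1 or either embryo library.

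The 2 that fell were XLOC_085348, at 0.696 and 0.389 RPKM in instar 1 larvae against 4.12 and 2.76 RPKM in embryos (-1.51 ± 0.41; limma, adjusted p = 0.0244), and XLOC_043206, with 1 and 0 reads in instar 1 larvae against 6 in each embryo library. Outside males XLOC_043206 reached 1 RPKM only in embryo replicate 1 (1.26 RPKM), so it passed the filter only with the male libraries. Both calls were lost without embryo replicate 1 or instar 1 replicate 2, and under median and quantile scaling, which gave 18 and 12 loci higher and 0 lower. No locus was called with only the 4 libraries of these groups, where limma gave 16 at an unadjusted p below 0.05, or without instar 1 replicate 2, where it gave 9. Limma-voom called 8 loci in this comparison. The call of XLOC_043206 was also lost by limma-voom and with a pseudocount of 0.1. Calls numbered 3 and 5 without embryo replicate 2 or 1, 4 and 5 without instar 4 replicate 1 or 2, 6 without either worker library, and 16 without early pupa replicate 1 or both early pupa libraries.

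More of the loci fell than rose in instar 4 larvae relative to instar 1, as did more of all tested genes. In instar 4 larvae 2 loci were called higher (background 5.03%) and 19 lower (23.7%), 20.8% in all against 28.8% of all tested genes, and the median was -0.47 over the loci against -0.36 over all tested genes. XLOC_095126 fell to 3.99 and 3.58 RPKM in instar 4 larvae, against 23.0 and 45.0 RPKM in instar 1 (-2.80 ± 0.45; limma, adjusted p = 0.00182), a call kept in all 23 alternatives. XLOC_046353 fell to 2 and 1 reads (0.248 and 0.106 RPKM), against 3.54 and 6.74 RPKM in instar 1 (-2.34 ± 0.49; limma, adjusted p = 0.00625, lost without instar 4 replicate 2). XLOC_098995 fell to 3.56 and 2.67 RPKM, against 9.96 and 36.3 RPKM in instar 1 (-2.30 ± 0.71; limma, adjusted p = 0.0354, lost in 10 of 23 alternatives, among them median and quantile scaling and leaving out instar 1 replicate 2 or either instar 4 or worker library).

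XLOC_043364 and XLOC_010266 rose in instar 4. XLOC_043364 had 1.76 and 3.34 RPKM in instar 4 larvae against 0 and 1 reads in instar 1 (1.73 ± 0.29; limma, adjusted p = 0.00223). In males this locus had 0.834 and 14.5 RPKM, so that its place among the 101 comes from male replicate 2. XLOC_010266 had 1.11 and 1.89 RPKM in instar 4 larvae against 2 reads in each instar 1 library (0.97 ± 0.27; limma, adjusted p = 0.0225, lost without either instar 1 library or instar 4 replicate 2). Both calls were lost in a fit of all 14 libraries, and that of XLOC_010266 also by limma-voom on resolved reads. XLOC_010266 was no longer highest in males under median or quantile scaling. Calls in this comparison numbered 34 without both early pupa libraries or either of them, 8 without instar 1 replicate 2, and 7 and 5 without instar 4 replicate 1 or 2; median scaling gave 5 higher and 13 lower, and quantile scaling 5 and 9.

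Between late pupae and instar 4 larvae the share of loci called, 6.93%, was near the 6.63% of all tested genes. In late pupae 7 loci were called higher (background 3.97%) and 0 lower (2.66%), where limma gave 33 higher and 4 lower at an unadjusted p below 0.05 and limma-voom called 1 lower. The share of all tested genes at that unadjusted p is not given here, and nothing is read from those counts. The median was 0.75 over the loci, 0.55 over the other XLOC loci and 0.36 over all tested genes. XLOC_057823 rose to 71.2 and 22.9 RPKM in late pupae, against 0.775 and 0.497 RPKM in instar 4 (4.67 ± 0.50; limma, adjusted p = 0.00167, kept in all 23 alternatives). XLOC_118104 stood at 58.1 and 3.56 RPKM in late pupae with 0 reads in both instar 4 libraries, at least 260-fold higher with instar 4 set at 3 reads in 1 library (limma, adjusted p = 0.0379). The bound rests on late pupa replicate 1, and with replicate 2 alone it was 30.1-fold. That call was lost in 12 of 23 alternatives, among them leaving out late pupa replicate 1 or either embryo, instar 1, instar 4 or worker library. XLOC_046353 rose to 3.53 and 3.63 RPKM, against 0.248 and 0.106 RPKM in instar 4 (1.96 ± 0.49; limma, adjusted p = 0.0449, lost in 9 of 22 alternatives, among them leaving out any 1 instar 1, instar 4, late pupa or worker library). XLOC_113687, added after its values were seen, had 2.61 and 1.66 RPKM in late pupae with 0 reads in both instar 4 libraries, at least 38.6-fold higher on the same floor (limma, adjusted p = 0.00601).

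This count moved most with the processing: limma called 42 loci higher and 2 lower in a fit of the late pupa and instar 4 libraries alone, and 29 higher and 4 lower without both early pupa libraries or either of them. It fell to between 1 and 4 without either instar 1, instar 4, late pupa or worker library or without embryo replicate 1, and median scaling gave 8 higher and 3 lower. The share of all tested genes called in these other fits is not given here, so nothing particular to the loci is read from these counts. Neighbouring comparisons share a group, so the rise of XLOC_057823 in instar 1, its fall in instar 4 (-2.04 ± 0.50; limma, adjusted p = 0.0129) and its rise in late pupae are not independent of each other.

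**Figure D5:**
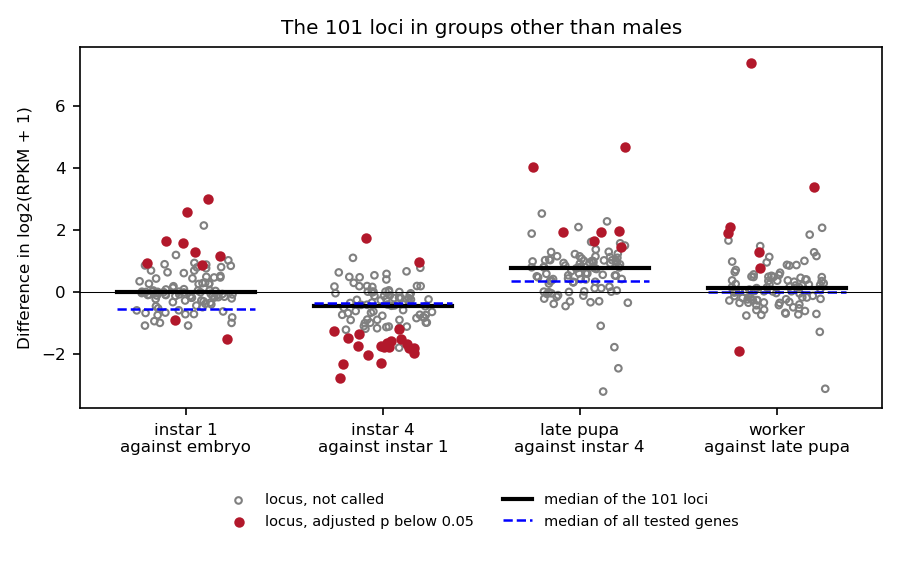
Difference in log2(RPKM + 1) of each of the 101 loci in 4 comparisons among groups other than males, the first named group minus the second. Filled points were called by limma at an adjusted p below 0.05; black bars are medians of the loci and dashed bars medians of all 12421 tested genes, which lie apart most in instar 1 against embryo (-0.02 and -0.55), where the rule leaves out genes highest in embryos.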

How the data were processed

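Per the labels' protocols, poly(A) RNA of whole bodies was extracted with TRIzol, treated with DNase and sequenced as strand-specific dUTP libraries. The deposited values are RPKM computed by the authors; STAR 2.5.0b and DESeq2 are named without a role in the submitters' processing notes, and no source used here gives the counter, genome build or annotation. Whole reads and gene model lengths were resolved from the RPKM steps within a relative tolerance of 1e-05, for 18543 of 18543 genes above 0. Tests used limma 3.58.1 in R 4.3.3 on log2(RPKM + 1) of the 12 libraries other than males, with an intensity trend, for genes that reached 1 RPKM in 2 or more of the 14 libraries. This filter counts the male libraries, and some members passed it only with them, among them XLOC_043206, XLOC_061813, XLOC_085695, XLOC_012414 and XLOC_089298. Calls of such loci are given and are not read as results. Early pupa replicates lay far apart and entered the shared spread. The read step and the fit were also run on simulated data in which all libraries had the same spread, for worker against late pupa only. The replicates here were less even, so that run does not measure how reliable the calls are. Tables and figures used Python 3.11.15, numpy 2.4.6, pandas 2.3.3 and matplotlib 3.10.9.

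The 101 loci, the comparisons and the rule for named loci were chosen with earlier results of these data known. Named were the 6 loci of highest male mean, the 6 of largest lead, 3 just inside and 3 just outside the rule, up to 3 called in each direction per comparison with groups that do not overlap, the most abundant locus per second group, and the longest and shortest; others are said to be picked later. Results were recomputed with a pseudocount of 0.1, without the filter, at a mean RPKM of at least 5, with median or quantile scaling, without the trend, with all 14 libraries, without early pupae, with only the 4 libraries compared, with a replicate block, by limma-voom on resolved reads, and leaving out each library in turn.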

Additional observations from a re-analysis of the deposited data

How the results depend on the processing

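Of 135 counts recomputed with 1 choice changed, 76 were within 1.5 times the value reported and 59 were not. Of 382 recomputed differences of named loci, 302 kept direction and call, 80 lost the call and 0 changed sign. Why counts and calls changed was not tested. The shares of all tested genes called or varying are given only for the fit of the 12 libraries reported first. Counts of loci under other settings or at an unadjusted p, here and above, are therefore not read as particular to the loci. At a mean RPKM of at least 5, which tests fewer loci, 29 loci were highest in males and 17 varied over the other groups, and calls numbered 3, 13, 3 and 4 in the 4 comparisons in order of development. With no filter calls numbered 6 for instar 1 against embryo and 2 for late pupa against instar 4. With log2(RPKM + 0.1) there were 14 for late pupa against instar 4 and 4 for worker against late pupa. Median scaling gave 18 for instar 1 against embryo and 11 for late pupa against instar 4, and quantile scaling 11 for worker against late pupa. Without both early pupa libraries 68 loci varied, and calls numbered 16, 34, 33 and 14. With only the 4 libraries compared they numbered 0 for instar 1 against embryo (16 at an unadjusted p below 0.05), 44 for late pupa against instar 4 and 16 for worker against late pupa.

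Leaving out each library gave 74 to 128 loci highest in males, 19 to 67 varying loci, and 0 to 16, 5 to 34, 1 to 33 and 4 to 14 calls in the 4 comparisons. The lone library of a group was then taken to vary as the other groups do. The labels do not say what replicate numbers stand for, and the correlation between deviations of libraries with the same number lay from -0.264 to 0.148 (15 group pairs), and no pairing was read from the numbers. With the replicate block there were 33 varying loci and 8, 19, 7 and 4 calls. Depth limits the low loci most: at the median length a floor of 3 reads was worth 0.207 RPKM in male replicate 2, the shallowest library.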

Other observations

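Identifier numbers of some loci lie close together, which was seen after the values were known; whether the numbers follow position in the genome is not given in the sources used here. XLOC_093879, XLOC_093883 and XLOC_093889 are consecutive among tested XLOC loci, and all 3 were highest in males with workers second. XLOC_093879 had 22.4 and 5.42 RPKM in males and 4.11 and 3.86 RPKM in workers, with 22 and 2 reads in late pupae and 0 to 1 reads in each of the 8 libraries of embryos, larvae and early pupae. The levels of XLOC_093883 correlated with those of XLOC_093879 at r = 0.868 and with those of XLOC_093889 at r = 0.916 over the 14 libraries, which share depth and scaling. The male libraries, by which all these loci were chosen, are among the 14, so a positive r is partly built in. XLOC_085861 and XLOC_085863 correlated at r = 0.924, with 8.61 and 6.45 RPKM and 15.5 and 10.6 RPKM in males. Other members with close numbers correlated less, such as XLOC_077428 and XLOC_077469 at r = 0.120 and XLOC_031906 and XLOC_031924 at r = 0.240. None of these sets was tested, and whether these loci overlap is not given in the sources used here.

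Over 90 pairs of neighbouring tested XLOC loci whose numbers differ by at most 50, both were highest in males in 13 (14.4%) and 1 of the pair in 34. Over all 396 neighbouring pairs both were in 33 (8.33%), where the square of the share of XLOC loci highest in males is 6.47%. No test was made of this.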
